A study of Mus musculus with 288 samples.

Results

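Apolipoproteins are the protein parts of lipoproteins, the particles that carry cholesterol and triglycerides in blood. Here 10 mouse apolipoprotein genes were followed (Apoa1, Apoa2, Apoa4, Apoa5, Apob, Apoc1, Apoc2, Apoc3, Apoe and Apoh), chosen by name as members of one gene group out of 35904 genes measured. All 10 were present in every table. Wild-type male C57BL/6J mice, 8 weeks old, breathed room air (normoxia) or were exposed to intermittent hypoxia (IH), repeated short drops of inhaled oxygen in the light, resting phase, for 7 days. Mice of both groups were then moved to constant darkness in room air, and tissues were taken on the second day, so no sample was collected during hypoxia. RNA was measured in liver, kidney, lung, heart, muscle and cerebellum at 8 time points 3 hours apart, with 3 mice per time point and treatment, which gives 24 libraries per tissue and treatment. Values are TPM, the abundance of a transcript relative to its library and corrected for transcript length, so levels of different genes can be compared. All mice were males of 1 strain. Whole tissue was sequenced, so a change in the share of a cell type and a change of RNA per cell cannot be told apart.

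Most plasma apolipoproteins are made by the hepatocyte. Apob is the structural protein of very-low-density and low-density lipoproteins and stays on its particle for life, while the small proteins Apoa1, Apoa2, Apoc1, Apoc2, Apoc3 and Apoe move between particles. Apoc2 activates lipoprotein lipase, Apoc3 and Apoc1 slow the clearance of triglyceride, Apoa5 promotes it, Apoe is a ligand of lipoprotein receptors, and Apoh (beta-2-glycoprotein I) binds anionic phospholipids. Apoe is also known as a product of macrophages and of astrocytes.

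Most of the genes lie in clusters. In the GRCm38 build, Apoa1 (9:46228580-46230466, plus strand), Apoc3 (9:46232933-46235636, minus), Apoa4 (9:46240696-46243459, plus) and Apoa5 (9:46268633-46271919, plus) follow each other on chromosome 9. Apoc2 (7:19671579-19677941), Apoc1 (7:19689481-19692660) and Apoe (7:19696109-19699188) stand on the minus strand of chromosome 7. Apoa2 (1:171225054-171226379), Apob (12:7977648-8016835) and Apoh (11:108343354-108414396) lie on the plus strand of other chromosomes. Apoc2 overlaps the same-strand gene Gm44805, and the split of reads between the pair rests on the quantification. Apoa4, Apoa5 and Apoh also overlap other annotated genes.

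The promoters of 3 members are shown because the results below turn on them: Apob and Apoe for their change after IH, and Apoa5 for its rhythm in the liver. The sequences are those of RefSeq for build GRCm38.p6 and run 5′ to 3′ up to the base before a RefSeq transcription start, except that the Apob sequence stops at the annotated gene start, which lies before the RefSeq start. They cover chr9:46268358-46268607 (plus strand) for Apoa5, chr12:7977427-7977647 (plus) for Apob and chr7:19699189-19699438 (minus) for Apoe. Capitals mark the E-box (CACGTG), which clock proteins bind, and the TATA box (TATAAA).
Apoa5: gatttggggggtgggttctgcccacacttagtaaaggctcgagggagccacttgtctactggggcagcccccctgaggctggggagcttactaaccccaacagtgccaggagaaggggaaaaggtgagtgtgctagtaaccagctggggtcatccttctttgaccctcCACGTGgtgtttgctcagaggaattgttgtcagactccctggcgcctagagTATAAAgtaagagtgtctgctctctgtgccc
Apob: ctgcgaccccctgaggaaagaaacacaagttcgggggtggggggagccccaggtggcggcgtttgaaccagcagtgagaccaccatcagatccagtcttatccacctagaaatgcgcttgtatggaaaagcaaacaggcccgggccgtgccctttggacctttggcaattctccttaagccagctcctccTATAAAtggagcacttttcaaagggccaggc
Apoe: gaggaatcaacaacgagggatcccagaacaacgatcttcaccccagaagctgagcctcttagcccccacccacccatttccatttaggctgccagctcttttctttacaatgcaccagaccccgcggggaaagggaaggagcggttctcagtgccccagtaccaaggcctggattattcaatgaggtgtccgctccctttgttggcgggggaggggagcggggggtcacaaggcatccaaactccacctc
The E-box was found 82 bases before the start of Apoa5 and in no other member that had a sequence. It overlapped the core motif of hypoxia-inducible factors (ACGTG). The TATA box lay 31 bases before the start in Apoa5 and 60 bases before the RefSeq start in Apob. The Apoe promoter shown held neither, nor the hypoxia core or the nuclear receptor half-site (AGGTCA). Sequences of 12 start sites of 8 members were searched, on both strands of the 250 bases before the start. Of 32851 mouse promoters of that length, 6.02% held the E-box, 16.6% the hypoxia core, 14.0% the half-site and 12.4% the TATA box. The hypoxia core was also found in Apoc2, the half-site in Apoa2, Apoc2 and Apoh, and the TATA box in Apoa2 and at a second start of Apoe.

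Some libraries stood apart from their labels. The liver IH library of replicate 2 at 13:30 held heart transcripts. In it 12 heart markers summed to 11641 TPM (Myh6, a cardiac myosin heavy chain, at 1507 TPM). The 12 liver markers summed to 904 TPM (albumin, Alb, at 541 TPM). The lung IH library of replicate 1 at 22:30 held liver transcripts (Alb 200 TPM, Apoa2 304 TPM). The cerebellum IH library of replicate 3 at 1:30 also stood apart. Its Apoe was at 671 TPM and its 10 cerebellum markers summed to 613 TPM, against 4333 to 10629 TPM in normoxia. The 12 heart markers summed to 13470 TPM in it, against at most 8076 TPM in the other IH libraries of the cerebellum. The members' results that rest on the libraries that stood apart are given with and without them. The sum of 12 liver markers was between 39053 and 84039 TPM in normoxic liver and between 17.4 and 192 TPM in the other tissues in normoxia. In the liver, IH came with higher levels of transcripts of other organs: the sum of 12 kidney markers was between 45.7 and 478 TPM after IH (at most 136 without the library of heart transcripts) and between 1.40 and 129 TPM in normoxia. Kap, an androgen-regulated kidney gene, was at 32.8 TPM or more in every IH liver and at 90.4 to 103 TPM in 5 of the 8 normoxia livers of replicate 3, against at most 8.97 TPM in the other normoxia livers. Heart and muscle transcripts were also found across the cerebellum libraries. In normoxia 12 heart markers summed to between 134 and 5930 TPM there, and 12 muscle markers to between 2113 and 19749 TPM. Kidney markers summed to 35714 TPM or more in the kidney and muscle markers to 111076 or more in muscle. Heart markers summed to 21752 TPM or more in the heart. In the lung, 10 lung markers summed to between 141053 and 272377 TPM in normoxia. After IH the sum was between 37939 and 210188 TPM, with and without the library of liver transcripts. The IH lung library with the lowest sum was therefore a different one, and it was not left out on its own. TPM holds no read counts, so the number of reads behind each value is not given here.

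The liver expressed each of the 10 members at the highest level of the 6 tissues. Together they took 8.43% ± 0.802 of all TPM in normoxic liver (SD, n = 24), against 3.13% for albumin. Apoe was the most abundant at 30472 ± 2943 TPM, followed by Apoa2 (21187 ± 2894), Apoc1 (13662 ± 2117), Apoa1 (10418 ± 1574) and Apoc3 (4798 ± 1121). Apoh (1783 ± 157), Apoa5 (756 ± 239), Apob (679 ± 133) and Apoc2 (311 ± 53.3) formed a lower tier, and Apoa4, an intestinal apolipoprotein, had a median of 44.9 TPM with 1 library at 489. Of the small exchangeable proteins, Apoe, Apoa2, Apoc1, Apoa1 and Apoc3 were above Apob, the core protein of the particle, and Apoc2 was below it.

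**Figure D1:**
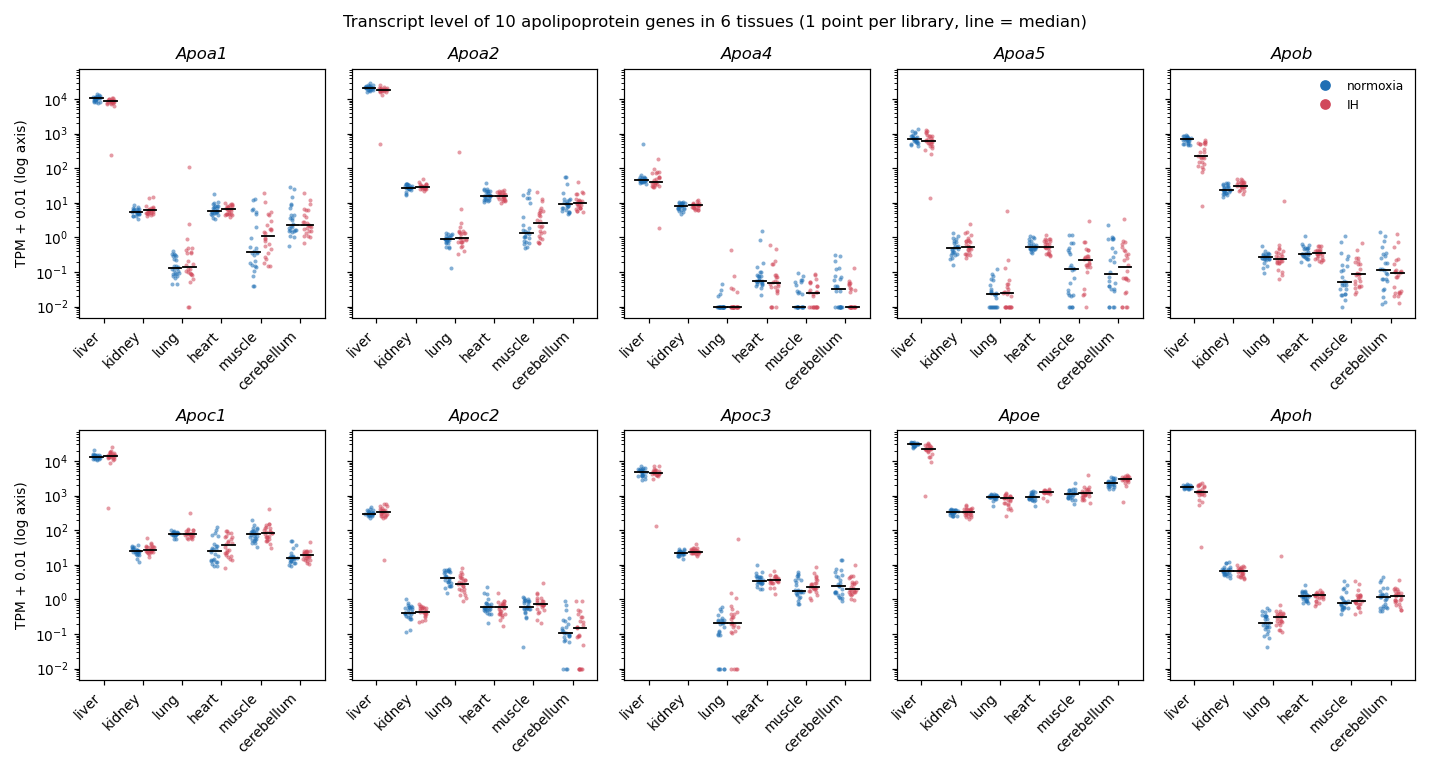
Level of each member in every library (TPM + 0.01, log axis) for 6 tissues in normoxia (blue) and after IH (red), with the median as a line. Median levels in the liver exceeded those of the other tissues for the 10 members, Apoe was at 205 TPM or more in every library, and the lowest liver point of Apob (8.36 TPM) is the library of heart transcripts.

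Outside the liver the order of tissues differed by member. Levels of neighbouring tissues in normoxia were compared by a 2-sided permutation test of mean log2(TPM + 0.5) with 100000 resamples, adjusted over 50 comparisons. Of these, 34 differed and 16 did not, and the step from the liver to the next tissue gave for each of the 10 the lowest p possible with this number of resamples (1e-05, adjusted 2.38e-05). Scaling over all tissues moved the number that differed to 40 of 50.

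Apoe was high everywhere. It was at 2372 ± 546 TPM in the cerebellum, 1146 ± 358 in muscle, 952 ± 217 in the heart, 918 ± 129 in the lung and 336 ± 48 in the kidney (SD, n = 24 each, normoxia). The cerebellum was above muscle and the lung above the kidney (adjusted p = 2.38e-05 for both, permutation test), while muscle and heart (adjusted p = 0.0527) and heart and lung (adjusted p = 0.766) did not differ beyond their spread on this scale. With TPM scaled over all tissues, Apoe was at 1338 TPM in the heart, 1256 in muscle and 555 in the lung, and muscle lay above the lung (adjusted p = 1.92e-05, permutation test), while heart and muscle did not differ (0.388). Apoc1, the neighbor of Apoe, followed with 81.7 ± 36.9 TPM in muscle, 79.1 ± 10.6 in the lung, 35.1 ± 31.8 in the heart, 25.0 ± 6.15 in the kidney and 19.1 ± 11.0 in the cerebellum. Lung and muscle did not differ (adjusted p = 0.688, permutation test), nor did heart and kidney (0.778), but with TPM scaled over all tissues both pairs did (1.92e-05 and 0.0137). Apoc2 reached 4.53 ± 1.88 TPM in the lung and stayed below 1 TPM on average in the 4 remaining tissues.

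The kidney held the second highest level of Apob, Apoa4, Apoa2, Apoc3 and Apoh. Kidney Apob was at 25.3 ± 6.66 TPM and Apoa4 at 8.06 ± 1.71 TPM, above the heart, the next tissue, at 0.393 ± 0.198 and 0.152 ± 0.338 (adjusted p = 2.38e-05 for both, permutation test). Kidney Apoa2 (28.0 ± 5.07 TPM), Apoc3 (22.2 ± 3.31) and Apoh (6.99 ± 2.05) were also above the heart, at 17.8, 3.86 and 1.29 TPM. The adjusted p was 2.38e-05 for each (permutation test), but with TPM scaled over all tissues Apoa2 did not differ (0.14). Kidney Apoa1 (5.64 ± 1.21) was measurable as well. Apoa5 averaged 0.544 TPM in the kidney and 0.601 TPM in the heart, which did not differ as deposited but did with TPM scaled over all tissues (adjusted p = 0.000435, permutation test).

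Low levels outside the liver were set beside those of 12 liver markers, each as a percent of its own liver level in normoxia. In the kidney, Apoa4 stood at 12.5% and Apob at 3.72% of the liver, above all 12 markers, whose highest was 1.79% and whose median was 0.122%. In the lung, Apoe (3.01%) and Apoc2 (1.46%) were above all markers, and in heart and muscle only Apoe (3.12% and 3.76%) was. In the cerebellum Apoe was at 7.78% of its liver level and none of the 10 exceeded the marker range, which Itih3 set. The other members lay within the range of the markers in each of the 5 tissues. In the cerebellum the libraries with the highest albumin, at 65.8 and 61.3 TPM, were also those with Apoa2 at 54.2 and 55.9 TPM. What part transfer between tissues or blood has in these low values was not tested.

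To ask how IH changed mean 24-hour expression, log2(scaled TPM + 0.5) of 24 IH and 24 normoxia libraries was compared in each tissue with limma, for genes whose mean over these libraries reached 1 TPM. A gene was called where the adjusted p was at most 0.05 and the change at least 1.5-fold. Fold changes are on this scale and understate the change of low genes. All 10 members passed the filter in the liver, 8 in the kidney (not Apoa5 and Apoc2), and 6 each in lung, heart, muscle and cerebellum. In the lung, Apoa1, Apoa2 and Apoc3 had levels under or near 1 TPM, and Apoa1 and Apoc3 passed only through the library with liver transcripts. Of the members tested, 1 of 10 was called in the liver, where 3.65% of all genes were, and 2 of 6 in the lung, where 13.5% were. No member was called in the kidney (0.783% of all genes), heart (2.95%), muscle (0.374%) or cerebellum (2.64%). An unadjusted p under 0.05 was found there for 4, 1, 0 and 1 members. Of all genes it was found for 4264 of 12902, 6645 of 12779, 3063 of 12824 and 4514 of 14892. By adjusted p alone, 2 members passed in the liver (24.2% of all genes), 2 in the kidney (19.8%), 3 in the lung (70.4%), 1 in the heart (45.2%), none in muscle (10.4%) and 1 in the cerebellum (15%). The direction over all genes depended on the scaling. The median log2 change of the genes tested was -0.01 in liver, -0.08 in lung and 0.04 in heart, and -0.12, 0.21 and 0.15 on unscaled TPM. The calls moved from 125 higher and 289 lower to 70 and 518 in the liver, from 1402 and 677 to 2908 and 58 in the lung, and from 141 and 236 to 326 and 162 in the heart.

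**Figure D2:**
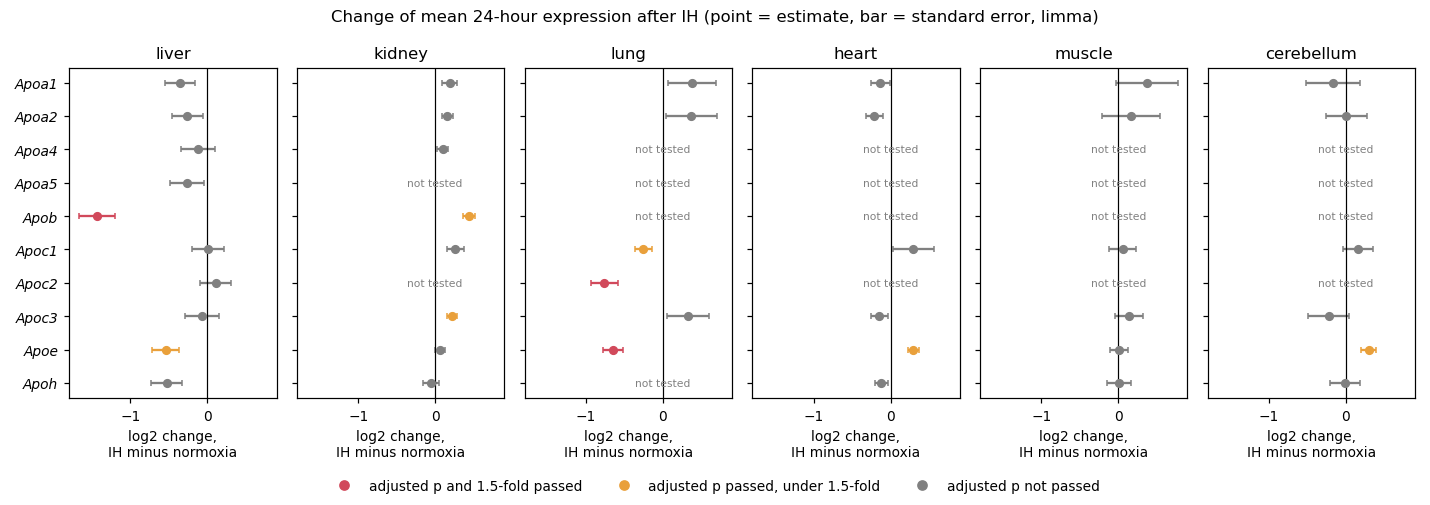
Log2 change of each member after IH (IH minus normoxia, limma estimate with its standard error) in 6 tissues, colored by whether the adjusted p and the 1.5-fold threshold were passed. Apob in the liver (-1.44) and Apoc2 (-0.76) and Apoe (-0.65) in the lung passed both, and members below the filter are marked as not tested.

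Apob was the member that fell most in the liver. In normoxia its level was between 472 and 899 TPM, with a median of 713. After IH it was between 8.36 and 646 TPM, with a median of 221, or between 76.2 and 646 without the library of heart transcripts. The groups overlapped, since the 8 IH libraries of replicate 3, at 507 to 646 TPM, lay in the range of normoxia. The log2 change was -1.44 (SE 0.235, adjusted p = 1.64e-05), a level 2.71-fold higher in normoxia, and -1.28 (adjusted p = 5.65e-07) without the library that stood apart. The mean after IH was lower at 8 of 8 time points.

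The fall of Apob was seen in 2 of the 3 replicate numbers. The replicate number is part of each sample label, and the labels do not say whether it marks a batch. In replicates 1 and 2, IH levels were 205 ± 106 TPM (n = 8) and 171 ± 44.5 TPM (n = 7, without the library that stood apart), against 732 ± 69.9 and 784 ± 82.8 TPM in normoxia (n = 8 each). In replicate 3, the 8 IH libraries were at 551 ± 46.9 TPM and the 8 normoxia libraries at 522 ± 51.2 TPM. The log2 change was -1.91 within replicate 1, -2.60 within replicate 2 and 0.16 within replicate 3 (adjusted p = 0.545 for the last). The change in replicate 3 differed from that in replicates 1 and 2 by 2.20 (adjusted p = 1.38e-13, limma interaction without the library that stood apart), in a tissue where 32.4% of all genes differed in this way. With that library the difference was 2.42 (adjusted p = 1.59e-06), where 23.1% of all genes differed. The change of Apob was not called when the libraries of replicate 1 were left out (-1.21, adjusted p = 0.0644), and without those of replicate 2 or 3 it was -0.86 and -2.25. Replicate 3 was also where Kap was high in normoxia, and its part in the division was not tested.

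Apoe and Apoh had smaller changes that also differed between replicate numbers once that library was left out. Liver Apoe was between 24026 and 35716 TPM in normoxia and between 9468 and 32756 after IH without the library that stood apart. Its log2 change was -0.54 (SE 0.177, adjusted p = 0.0205) over all libraries and -0.40 (SE 0.0922, adjusted p = 0.00113) without that library, both under 1.5-fold. Apoh was between 1525 and 2112 TPM in normoxia and between 536 and 2313 after IH on the same libraries, and its change of -0.53 (SE 0.203) just missed the threshold over all libraries (adjusted p = 0.0501). Without that library Apoh passed it at -0.35 (adjusted p = 0.00706). The groups overlapped for each gene. Apoe did not pass the adjusted p without replicate 1 (0.366) or replicate 2 (0.123), and was called without replicate 3 (-0.83). Within replicate 3 the changes were 0.0037 for Apoe and 0.16 for Apoh, against -0.76 and -0.75 within replicate 1. The difference between replicate 3 and the others was 0.62 for Apoe (adjusted p = 0.00298) and 0.78 for Apoh (adjusted p = 0.000591), both without the same library. With it the adjusted p was 0.0780 and 0.0550.

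**Figure D3:**
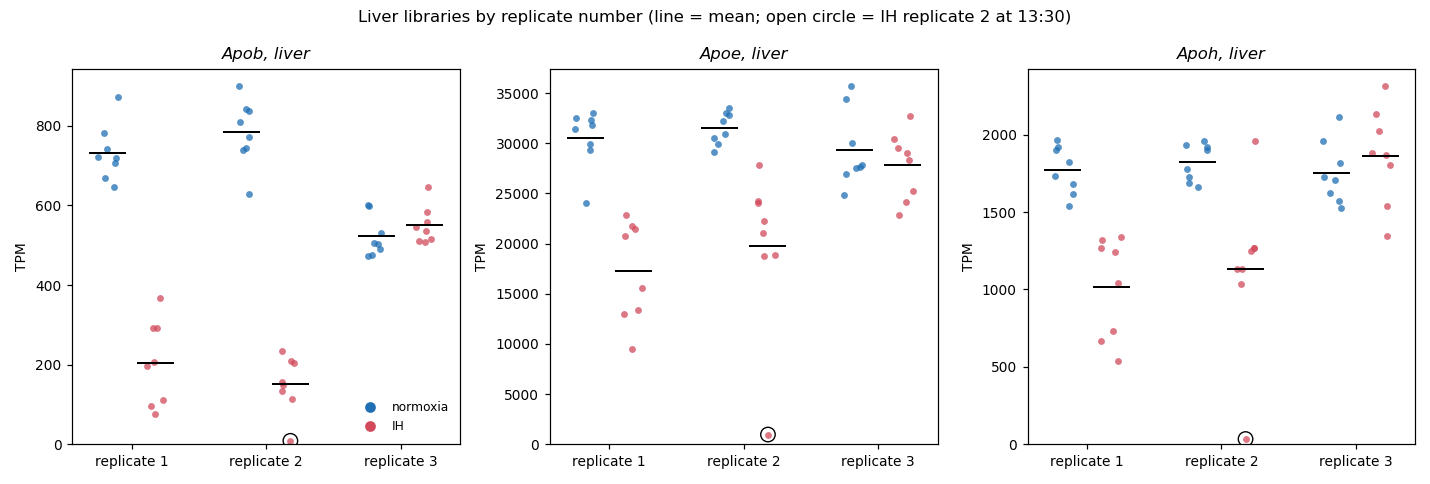
TPM of Apob, Apoe and Apoh in each liver library by replicate number, normoxia in blue and IH in red, with the mean as a line and an open circle on the IH library of replicate 2 at 13:30. In replicates 1 and 2 the IH libraries of Apob lay between 8.36 and 367 TPM, below the normoxia libraries, and in replicate 3 both groups lay between 472 and 646 TPM.

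The other 7 members did not pass the test in the liver. Apoc1 was at 13662 ± 2117 TPM in normoxia and 14126 ± 4500 after IH, and its log2 change was 0.01 (SE 0.208, adjusted p = 0.984). Apoc2 (0.11), Apoc3 (-0.07), Apoa4 (-0.12), Apoa2 (-0.26), Apoa5 (-0.27) and Apoa1 (-0.36) each had an adjusted p between 0.186 and 0.840. Without the library of heart transcripts the changes were 0.18 for Apoc1, 0.26 for Apoc2, 0.11 for Apoc3, 0.02 for Apoa4, -0.08 for Apoa2 and Apoa5 and -0.18 for Apoa1, with Apoc3 and Apoa4 of the other sign, and the adjusted p was between 0.137 and 0.934. The median over the 10 members was -0.27 with that library and -0.08 without it. The share of all TPM taken by the 10 members was 8.43% ± 0.802 in normoxia and 7.24% ± 0.878 after IH without the library that stood apart (n = 24 and 23). Albumin, in the same libraries, was at 3.13% and 2.20%. The 12 liver markers had a median log2 change of -0.60, with 7 called lower, over all libraries, and of -0.42, with 0 called and 11 past the adjusted p in limma, without the library of heart transcripts. Heart markers were called higher for 9 of 11 tested with that library and 9 of 10 without it, and kidney markers for 5 of 5 in both. The part of these transcripts in the change of Apob, Apoe and Apoh was not tested.

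Genes that assemble, remodel and take up lipoproteins were counted in 6 lists of 57 genes. In the liver 51 were tested and 8 called, 7 lower and 1 higher, a share of 15.7% against 3.65% of all genes, with a median change of -0.24 against -0.01 over all genes tested. The gene that was higher was Gpihbp1 (log2 change 0.77), which anchors lipoprotein lipase on capillaries. Those that were lower included Mttp (-0.80), which loads lipid onto Apob, the lipase chaperone Lmf1 (-0.69) and the cholesterol exporter Abca1 (-0.63). Lrp1, an endocytic receptor of remnant particles, was at 125 ± 41.5 TPM in normoxia and 56.3 ± 28.5 after IH (log2 change -1.13, adjusted p = 9.78e-06). Pltp, the phospholipid transfer protein, went from 32.8 ± 13.3 to 15.4 ± 6.85 TPM (-0.95, adjusted p = 3.74e-06). Without the library that stood apart 8 were called as well. None of the 51 was called within replicate 3 alone, where 1 of all 11468 genes was, and 16 of 50 were called within replicate 1, where 13.2% of all genes were.

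Lrp1 is, like Apob, encoded by a long transcript, and its change within replicate 3 was 0.28 against -1.72 and -1.97 within replicates 1 and 2. Apob is encoded by a transcript of 13934 bases. Among the other 135 genes tested in the liver whose longest coding transcript has at least 11000 bases, 92 had a change below 0, with a median of -0.10, and none was lower than Apob. After a correction of each library for the longest transcript and GC content of a gene, 64 of the 135 were below 0 (median 0.02) and Apob changed by -1.37 (adjusted p = 1.21e-05). With that correction Apoh was called at -0.62.

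In the kidney the direction for Apob was the opposite. It was between 14.8 and 37.9 TPM in normoxia (25.3 ± 6.66) and between 17.6 and 50.5 TPM after IH (33.5 ± 8.61), overlapping groups with a log2 change of 0.44 (SE 0.0793, adjusted p = 7.61e-05), under 1.5-fold. The mean was higher after IH at 8 of 8 time points, and the change within replicates 1, 2 and 3 was 0.47, 0.17 and 0.68. Of the settings tried, both thresholds were passed within replicate 3 alone. The difference of the change of Apob between liver and kidney was not tested, because Apob had under 1 TPM in other tissues and was left out of the test across tissues. Apoc3, at 22.2 ± 3.31 TPM in normoxia and 25.2 ± 4.59 after IH, changed by 0.22 (SE 0.0646, adjusted p = 0.0134), which was not past the threshold on unscaled TPM (0.17, adjusted p = 0.0895), or without replicate 1 (0.143) or replicate 2 (0.0829).

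Kidney Apoc1 was divided by replicate number. Its level was 25.0 ± 6.15 TPM in normoxia and 29.5 ± 9.11 after IH (log2 change 0.26, adjusted p = 0.0790). Within replicates 1 and 2 the change was 0.44 and 0.53, and within replicate 3 it was -0.18, a difference of -0.66 (adjusted p = 0.0235, limma interaction), where 20.3% of all genes differed. Of the pathway lists, 1 of 47 genes was called in the kidney. It was Lrp1, which went from 8.72 ± 3.25 to 14.1 ± 2.49 TPM (log2 change 0.75, adjusted p = 7.14e-09), the opposite direction to the liver.

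In the lung, where alveolar macrophages are a known source of Apoe, the level of Apoe was between 515 and 1118 TPM in normoxia and between 248 and 1150 after IH (918 ± 129 and 763 ± 248). The log2 change was -0.65 (SE 0.126, adjusted p = 1.42e-05), and the mean was lower after IH at 8 of 8 time points. Without the library of liver transcripts it was -0.67. On unscaled TPM the change was -0.34 (adjusted p = 0.0116), under 1.5-fold, where the median of all lung genes was 0.21. IH lungs also had more genes with a TPM above 0, 25455 ± 1529 against 22694 ± 737, and in a fit that held the detected genes as a covariate, Apoe changed by 0.19 (adjusted p = 0.220). The change was -0.81, -0.93 and -0.24 within replicates 1, 2 and 3, and replicate 3 differed from the others by 0.66 (adjusted p = 0.0117) without the library that stood apart, where 53.1% of all genes differed, and by 0.61 (adjusted p = 0.0235) with it. The change was under 1.5-fold without replicate 1 (-0.58) or replicate 2 (-0.52).

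Lung Apoc2 fell as well. It was between 1.5 and 7.49 TPM in normoxia and between 0.871 and 8.05 after IH (4.53 ± 1.88 and 3.18 ± 1.76), with a log2 change of -0.76 (SE 0.170, adjusted p = 0.000117). Without the library of liver transcripts the highest IH value was 6.30 TPM and the change -0.82. It was -0.54, -0.64 and -1.13 within replicates 1, 2 and 3, and -0.50 (adjusted p = 0.0117) on unscaled TPM, under 1.5-fold. Without replicate 3 it was -0.58, also under 1.5-fold, and with the detected genes as a covariate it was -1.18. Apoc2 was lower after IH under each of these settings, at a level of a few TPM. The longest transcripts of Apoc2, Apoe and Apoc1 are short, at 727, 1408 and 532 bases. In the lung the median change was -0.19 for genes under 2000 bases and 0.23 for those of 11000 bases or more. Within replicate 3 these medians were -0.29 and 0.32. After the correction for longest transcript and GC content fewer members were called in the lung. The part of transcript length in these changes was not tested beyond that correction.

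Apoc1 in the lung changed by -0.25 (SE 0.108, adjusted p = 0.0331) and by -0.34 without that library, and on unscaled TPM by 0.05, the opposite direction. The adjusted p was not passed without replicate 2 (0.199) or replicate 3 (0.783). Its mean was 79.1 ± 10.6 TPM in normoxia and 77.7 (between 56.1 and 111) after IH without that library. Within replicate 3 it changed by -0.68 (adjusted p = 1.55e-06), and replicate 3 differed from the others by -0.52 (adjusted p = 0.00118) without that library and by -0.64 (adjusted p = 0.0106) with it. Of 10 macrophage markers, 2 were called lower and none higher, with a median change of -0.14, and their summed level was between 3994 and 9635 TPM in normoxia and between 5489 and 10897 after IH. Of the lung's own 10 markers 7 were called lower, with a median change of -0.63. Heart markers were called higher for 5 of 12 (2 of 12 without that library) and muscle markers for 4 of 10 tested, with medians of 0.47 and 0.70. Without that library the counts of macrophage, lung and muscle markers called were the same. The part of these transcripts in the change of Apoe and Apoc2 was not tested.

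Among the pathway lists, 7 of 42 genes were called in the lung, 3 higher and 4 lower (16.7%, against 13.5% of all genes), and 8 of 42 without the library of liver transcripts. Those with the largest change were low in level. Apoc4, the gene between Apoc2 and Apoc1, went from 0.482 ± 0.193 to 3.35 ± 5.74 TPM (log2 change 1.25, adjusted p = 5.59e-07), and to 2.23 ± 1.81 TPM (1.10) without the library of liver transcripts. Lcat, which esterifies cholesterol on high-density lipoproteins, went from 0.857 ± 0.327 to 2.78 ± 1.39 TPM (0.97, and 0.93 without that library), and the Apoe receptor gene Lrp8 from 0.617 to 2.08 TPM (0.94 with and without it). With the detected genes as a covariate none of the 3 was called, at 0.13 for Apoc4, 0.35 for Lcat and 0.52 for Lrp8, and Lcat was not called within replicate 3 (0.36).

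Apoe rose in the heart and the cerebellum, under 1.5-fold in both. Heart Apoe was between 496 and 1379 TPM in normoxia and between 683 and 1558 after IH (952 ± 217 and 1257 ± 179), overlapping groups with a log2 change of 0.30 (SE 0.0725, adjusted p = 0.000877). The mean was higher at 8 of 8 time points, and the change within replicates 1, 2 and 3 was 0.20, 0.27 and 0.46. With the detected genes as a covariate, 25124 ± 1719 in normoxia and 21447 ± 688 after IH, it was 0.23 (adjusted p = 0.314). Heart macrophage markers summed to between 300.4 and 792 TPM in normoxia and between 417 and 927 after IH, with none of 9 tested called.

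Cerebellar Apoe was between 1510 and 3494 TPM in normoxia (2372 ± 546) and between 1891 and 3828 after IH (3037 ± 456) without the library that stood apart. Its log2 change was 0.29 (SE 0.0973, adjusted p = 0.0329) over all libraries and 0.34 (adjusted p = 0.00359) without that library. The mean was higher after IH at 6 of 8 time points, and the change was 0.28, 0.55 and 0.05 within replicates 1, 2 and 3. The adjusted p was not passed without replicate 1 (0.240) or replicate 2 (0.690), on unscaled TPM (0.145), or, without the library that stood apart, after the correction for longest transcript and GC content (change 0.09, adjusted p = 0.273). None of 10 astrocyte markers was called, and their median change was -0.07 (0.01 without that library, with none called). The heart markers found in the cerebellum had a median change of -0.67 (-0.89 without that library) and the muscle markers of 0.27 (0.09), with none called. The part of these transcripts in the change of Apoe was not tested.

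In muscle no member passed the test. Apoe was at 1146 ± 358 TPM in normoxia and 1279 ± 647 after IH, with a log2 change of 0.01 (SE 0.113, adjusted p = 0.977), and the adjusted p of the other 5 members was between 0.629 and 0.981. No gene of the pathway lists was called in the heart (38 tested), muscle (35) or cerebellum (40). Of these genes 21, 6 and 13 had an unadjusted p under 0.05, beside 6645 of 12779, 3063 of 12824 and 4514 of 14892 of all genes. The adjusted p alone was passed in limma by 19, 1 and 7, beside 45.2%, 10.4% and 15% of all genes. In the heart 18 of these 19 were higher after IH. The share of higher genes among all heart genes past the adjusted p is not given here, so this count has no background. With the detected genes as a covariate, 257 of 12779 heart genes passed the adjusted p, against 5780 without it.

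**Figure D4:**
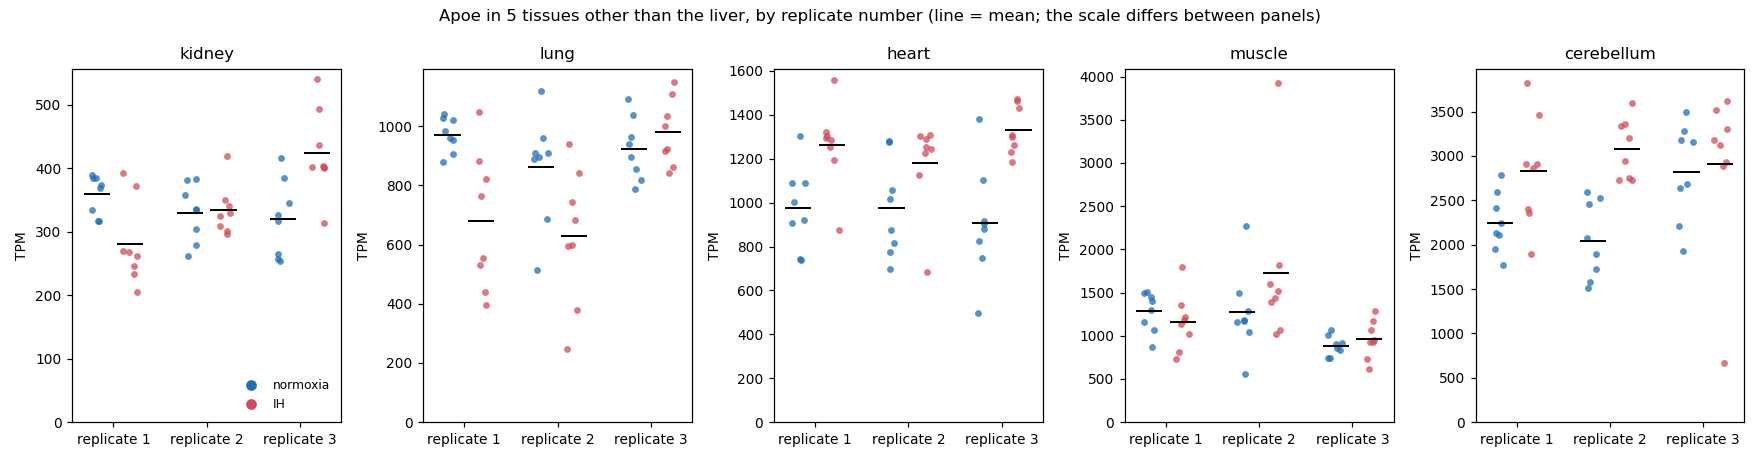
TPM of Apoe in each library of 5 tissues by replicate number, normoxia in blue and IH in red, with the mean as a line; each panel has its own scale from 0. On the unscaled TPM shown, lung Apoe was lower after IH in replicates 1 and 2 (means 680 and 629 against 971 and 861 TPM) and not in replicate 3 (980 against 923 TPM). On scaled TPM, used for the log2 changes, lung Apoe was lower after IH in replicate 3 as well. Heart Apoe was higher after IH in each of the 3 (means 1260, 1179 and 1332 against 974, 975 and 906 TPM).

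Whether the effect of IH differed between tissues was tested by an interaction across all libraries, for the 5 members whose mean reached 1 TPM in every tissue. Apoe differed (adjusted p = 1.13e-10, limma), while Apoa1, Apoa2, Apoc1 and Apoc3 did not pass, with adjusted p between 0.294 and 0.496. Apoa1 and Apoc3 entered the test only through the lung library of liver transcripts, without which both averaged 0.308 TPM in the lung after IH. Of all genes tested 88.3% differed, so a difference was the common case. Apoe had a change of -0.54 in liver, -0.65 in lung, 0.06 in kidney, 0.01 in muscle, 0.30 in heart and 0.29 in cerebellum. Libraries of different tissues may come from the same mouse and were taken as independent.

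To ask whether members were rhythmic, a cosine of 24 hours was fitted over the 8 time points in each tissue and treatment, for genes that reached 1 TPM in any library. The peak time (acrophase) is on the scale of the time labels, and the amplitude is the log2 distance from mean to peak. In normoxia 1 of 10 members was called in liver (14.4% of all genes), 2 of 9 in kidney (18.6%), 1 of 9 in lung (6.8%), 0 of 10 in heart (0.558%), 0 of 9 in muscle (5.38%) and 0 of 8 in cerebellum (0%). After IH none was called in any tissue, where the share of all genes was 2.33% in liver, 5.38% in kidney, 3.37% in lung, 3.45% in heart, 7.43% in muscle and 0.00936% in cerebellum. At an unadjusted p under 0.05, 1 member (Apoc2 in the lung) was found after IH, and 3 in the heart and 7 in the cerebellum in normoxia. Of all genes, 2904 of 20106 were found in the lung after IH. In normoxia it was 929 of 15770 in the heart and 4681 of 21372 in the cerebellum. A rank test called none in the liver and 1 each in kidney and lung in normoxia, and none after IH.

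Apoa5, which promotes the lipolysis of triglyceride-rich particles and whose promoter holds the E-box shown above, peaked in the liver at 13.3 h in normoxia (amplitude 0.31, SE 0.0719, adjusted p = 0.0115). Its mean over 3 livers was 640 TPM at 1:30, 628 at 4:30, 753 at 7:30, 940 at 10:30, 897 at 13:30, 900.1 at 16:30, 719 at 19:30 and 570.2 at 22:30. The level was highest from 10:30 to 16:30 and lowest at 22:30. After IH the amplitude was 0.05 (SE 0.305, adjusted p = 1), and 0.37 (adjusted p = 0.252) without the library of heart transcripts, which falls at 13:30. The rhythm in normoxia was not called by the rank test (adjusted p = 0.266), on TPM that were not logged (0.137) or not scaled (0.0889), with time point as a factor (0.254), or without replicate 1 (0.135) or replicate 3 (0.0589).

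Lung Apoc2 had the largest amplitude of the called members. In normoxia it peaked at 1.70 h (amplitude 0.60, SE 0.110, adjusted p = 0.00497), with means of 5.21, 6.02, 5.10, 3.57, 2.11, 2.68, 5.42 and 6.16 TPM from 1:30 to 22:30. After IH the means were 3.99, 3.51, 5.17, 2.46, 1.33, 2.06, 2.38 and 4.53 TPM, with the lowest value at 13:30 in both groups. The amplitude after IH was 0.56 (adjusted p = 0.0725), and 0.54 (adjusted p = 0.0388) without the library of liver transcripts. In normoxia the call was lost without replicate 1 (0.124) or replicate 3 (0.0558).

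In the normoxic kidney Apoa2 peaked at 17.2 h (amplitude 0.24, SE 0.0693, adjusted p = 0.0428) and Apoe at 17.5 h (0.16, SE 0.0380, adjusted p = 0.0167). Mean Apoa2 was 22.7 TPM at 1:30 and 33.1 TPM at 16:30, and mean Apoe 299.9 and 394 TPM at the same times. After IH the amplitudes were 0.04 and 0.09, with means between 26.9 and 36.3 TPM for Apoa2 and between 313 and 412 TPM for Apoe. Neither was called with time point as a factor or without replicate 2, and Apoa2 was not called without replicate 1 and Apoe without replicate 3. The difference of rhythm between treatments was not called for any member in any of the 6 tissues, nor for any gene (0% in each of the 6). At an unadjusted p under 0.05 the difference was found for Apoa2 in the kidney (p = 0.0421) and Apoh in the heart (p = 0.0116), and for 109 to 1056 of all genes per tissue in limma. A rhythm called in normoxia and not after IH is therefore not shown to differ here.

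**Figure D5:**
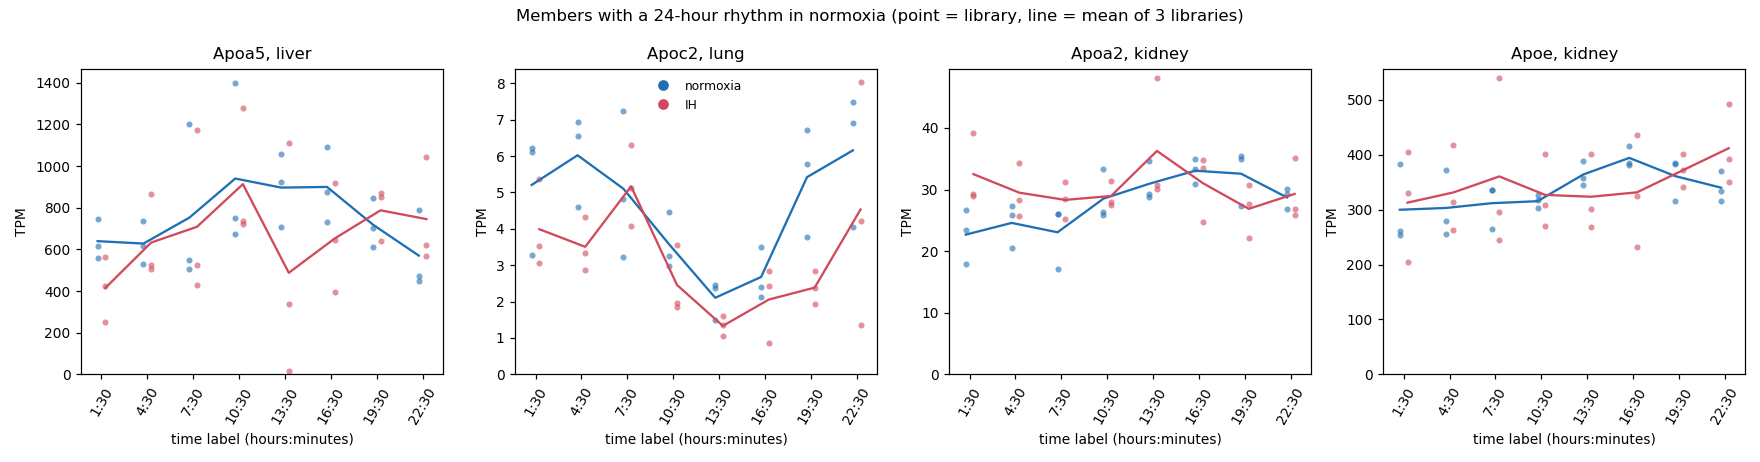
TPM by time label for the members called rhythmic in normoxia (Apoa5 in the liver, Apoc2 in the lung, Apoa2 and Apoe in the kidney), 1 point per library and a line through the mean of 3 libraries, normoxia in blue and IH in red. Lung Apoc2 was lowest at 13:30 in both groups (2.11 and 1.33 TPM), and liver Apoa5 in normoxia was highest at 10:30 (940 TPM).

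Of the pathway lists, 12 of 54 genes were called rhythmic in normoxic liver (22.2%, against 14.4% of all genes) and 3 of 54 after IH (5.56%, against 2.33%). The genes of largest amplitude were repressors of the clock. Nr1d1 peaked at 7.45 h with an amplitude of 2.37 in normoxia and of 2.22 after IH, and Nr1d2 at 9.77 h (1.40 and 1.37). Both were called in both treatments. Among the members the largest amplitude in normoxic liver was the 0.31 of Apoa5.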

How the data were processed

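RNA was measured in 288 libraries of 6 mouse tissues. Per the labels and the study's methods, poly(A) RNA was sequenced as strand-specific, paired-end libraries, checked with FastQC 0.11.3 and quantified by the authors with kallisto against Ensembl release 102 (mm10; the kallisto version is not given in the sources used here). The deposited values are TPM summed per gene, between 989211 and 999188 per library. TPM holds no counts, so the files do not give the depth of a library and no counting interval was computed. Their own comparison used DESeq2 on kallisto's estimated counts and is not repeated here.

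Within each tissue, libraries were brought to a common scale by median-of-ratios factors, and log2(TPM + 0.5) was used. Models were fitted over all genes with limma 3.58.1 (intensity trend, R 4.3.3), with Benjamini-Hochberg adjustment over the genes of a tissue. Rhythm was tested by cosine and sine terms of 24 hours, where the study used MetaCycle and CircaCompare. All tests of differences were 2-sided. Levels were summarized with Python 3.11.15, pandas 2.3.3, numpy 2.4.6 and scipy 1.17.1, and plotted with matplotlib 3.10.9. The methods were tested on simulated data. Positions came from GENCODE release M21 (GRCm38) and promoters from RefSeq, which held 8 of 10 members. The members and lists were chosen with earlier results of these data known. All 10 members are named. Of the pathway lists, up to 3 called genes with the largest change per tissue, and in the liver 3 rhythmic genes with the largest amplitude, are named. Other called genes of the liver lists were named after their values were seen. Some genes of the lists are counted but not reported here by name. Within a time point, libraries of the same replicate number were not treated as pairs. Each library is 1 mouse, and the labels do not say whether the mice came from 1 cohort, so p-values measure the spread within this experiment. Other scalings, filters, pseudocounts, terms, a replicate block and leaving out replicates were tried. Leaving out libraries that stood apart, the correction for length and GC content and the interaction with replicate number were chosen after seeing the data. No per-sample column was left unused (0), and no library repeated another.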

Additional observations from a re-analysis of the deposited data

Results flagged for a closer look

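The effect of IH on Apoe differed between tissues in a test of the interaction itself (adjusted p = 1.13e-10, limma), with a fall in liver and lung and a rise in heart and cerebellum. Among all genes tested 88.3% differed in the same way.

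The effect of IH in replicate 3 differed from that in replicates 1 and 2 for 7 results, by a limma interaction. Of the members, 10 were tested in the liver, 8 in the kidney and 4 in the lung, on the libraries used below. Among all genes 32.4% differed in this way in the liver, 20.3% in the kidney and 53.1% in the lung. In the liver, without the library that stood apart, replicate 3 minus the others was 2.20 for Apob, 0.62 for Apoe and 0.78 for Apoh on the log2 scale. In the kidney it was -0.66 for Apoc1. In the lung, without the library of liver transcripts, it was -0.68 for Apoa2, whose level there was near 1 TPM, -0.52 for Apoc1 and 0.66 for Apoe. With all libraries, liver Apoe (adjusted p = 0.0780), liver Apoh (0.0550) and lung Apoa2 (0.156) did not pass. The labels give replicate numbers and no batch, so whether the number marks a batch was not tested. No group of 3 libraries at a time point is large enough for a test of outliers.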

How the results depend on the processing

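Among the member changes recomputed under the alternatives, 727 kept their side of the threshold, 11 passed it in addition and 10 no longer passed it, while 5 whose change had passed the adjusted p turned in sign: liver Apob (0.16) and Apoe (0.0037) within replicate 3, lung Apoc1 on unscaled TPM (0.048) and within replicate 1 (0.22), and lung Apoe with genes detected as a term (0.19). Of 583 recomputed changes that had not passed the adjusted p, 70 also had the opposite sign, liver Apoh (0.16) and kidney Apoc1 (-0.18) within replicate 3 among them, and 1 of the 70, muscle Apoc1 within replicate 3 (-0.62), passed the threshold there. The number of members called in the liver, 1, was 3 on unscaled TPM and within replicate 1, 2 after the correction for longest transcript and GC content, 0 within replicate 3, and 0 to 3 when each replicate was left out. In the lung, 2 called members became 0 on unscaled TPM and 1 with a mean of at least 5 TPM, with genes detected as a term, within replicate 1, with the longest transcript and GC correction (with or without the library that stood apart), and 1 to 1 when each replicate was left out. Within replicate 3 alone, 1 member was called in kidney and in muscle. In the cerebellum, 0 to 1 were called when a replicate was left out. For rhythm in normoxia, the liver call (1) became 0 by the rank test, on TPM not logged or not scaled and with time point as a factor, and 0 to 1 without a replicate; the kidney calls (2) became 1 by the rank test, 0 with time point as a factor and 0 to 1 without a replicate; the lung call (1) became 0 with time point as a factor or a mean of at least 5 TPM and 0 to 1 without a replicate. Lung Apoc2 was called after IH (1 member) on unscaled TPM, with the replicate block and without the library that stood apart. The number of members whose effect differed between tissues, 1, was 1 to 2 without a replicate. The cause of these changes was not tested.

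Replicate numbers are shared by the groups, but in no tissue did every pair of the same number at a time point have a correlation over 0.1 (16 of 24 pairs in the liver, with a median of 0.22, and 5 to 12 of 24 elsewhere), so the numbers were not taken as pairs. With the replicate block, liver Apob kept its change of -1.44 (adjusted p = 0.000686), no count of members called for treatment moved, and 2 members were called rhythmic in normoxic cerebellum against 0 without it. Members with a mean under 1 TPM were left out of the treatment test by the filter.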

Other observations

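Apoa4 was listed at 0 in 20 of 24 lung libraries in normoxia and in 19 of 24 after IH, and in 13 and 10 of 24 muscle libraries. In the liver, the normoxia library of replicate 3 at 7:30 held Apoa4 at 489 TPM and the IH library of replicate 3 at 1:30 held 180 TPM, against medians of 44.9 and 39.8 TPM.

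The shift of long transcripts in the liver went with the replicate number. Among genes other than Apob with a longest coding transcript of at least 11000 bases, 93 of 120 had a change below 0 within replicate 1 (median -0.24), 88 of 133 within replicate 2 (-0.21) and 31 of 144 within replicate 3 (0.07). In the kidney 39 of 174 were below 0 within replicate 3, with a median of 0.25, and 78 of 175 over all libraries. The part of this shift in the opposite directions of Apob and Lrp1 in liver and kidney was not tested beyond the correction for length and GC content, after which kidney Apob changed by 0.43 and liver Apob by -1.37.

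In the cerebellum, 7 of 8 members tested had an unadjusted p under 0.05 for a rhythm in normoxia (Apoa1, Apoa2, Apoa5, Apob, Apoc1, Apoc3 and Apoh). None of them passed the adjusted threshold. Of all 21372 genes tested there, 4681 had an unadjusted p under 0.05 and 0 passed the adjusted threshold. The 3 normoxia libraries with the highest albumin there (65.8, 61.3 and 29.3 TPM) were all from 1:30 or 4:30.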
